A study of Mus musculus with 6 samples.

Results

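The genes described here encode the presynaptic vesicle and release machinery: 34 genes, found by their symbols among 19943 genes listed in at least 1 library. They comprise 9 genes of vesicle membrane proteins and transporters, 3 synapsins, 6 synaptotagmins, 6 SNARE and complexin genes, 4 genes of the Rab3 group and 6 active zone and priming genes. RNA of the medial prefrontal cortex, part of the frontal lobe, was sequenced in 3 control libraries and 3 libraries of mice isolated for 3 weeks from weaning onward. All were C57BL/6 mice. The sample labels give an age of 6 weeks and the text on the series gives 7 weeks. The labels describe the first group only as control, and give neither sex nor housing of the controls. No label ties a library to an animal of its own, so each p-value is relative to differences among libraries that may be technical. Libraries are called control 1 to 3 and isolated 1 to 3.

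At a synapse, transmitter is stored in vesicles that are filled by transporters, held in reserve by synapsins and brought to the active zone by Rab3 and its effectors. There, RIM, Munc13, Bassoon and Piccolo position and prime the vesicles. The SNARE proteins synaptobrevin on the vesicle and syntaxin 1 and SNAP-25 on the plasma membrane then zip together, complexin holds the assembly ready, and synaptotagmin triggers fusion when calcium enters. Most of these proteins are encoded by small families of paralogs that differ between neuron classes.

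Depth was even, between 18226448 and 18606573 expected counts per library. Expected counts are model estimates, with ambiguous reads divided among the genes they match. All 34 genes passed the filter on low counts, with between 199 (Sv2c) and 64765 (Snap25) counts in a library, so none was selected by a high level in 1 group. Together they held between 2.1% and 2.35% of the counts of a library. That share was 2.23% ± 0.121 in control and 2.25% ± 0.132 in isolated libraries (SD, n = 3, exact two-sided permutation test p = 1, where 3 against 3 allows no p below 0.1). Markers of cortical excitatory neurons were present in every library, with Tbr1 between 151 and 209 CPM (counts scaled to library size). Markers of striatal projection neurons, the main cells of the neighbouring striatum, separated libraries within both groups. Their summed level over 15 genes was 4099 CPM in control 2 and 2983 CPM in isolated 3, 1330.4 CPM in control 1, and between 487 and 708 CPM in the other three. All 15 were highest in those 2 libraries, and Isl1 was at 0 in control 3.

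None of the 34 genes passed the test between isolated and control libraries. With edgeR's quasi-likelihood test and Benjamini-Hochberg adjustment over 15169 genes, 0 members and 0% of all tested genes had an adjusted p under 0.05, in either direction. The count at an unadjusted p under 0.05 was 0 of 34 members, against 3.53% of all tested genes (1.52% higher and 2% lower in isolated libraries). DESeq2 and limma-voom called 0 members as well. Of the 34, 17 had a higher and 17 a lower mean in isolated libraries, with a median log2 difference of 0.0009 beside -0.0018 over all tested genes. The differences ran from -0.57 (Synpr) to 0.16 (Rph3a), and the smallest unadjusted p was 0.0624 (Synpr). For 20 of the 34 the 95% interval lay within a 1.2-fold change in both directions, a bound chosen after the intervals were seen. For the other 14 a larger change was not excluded by these libraries. For 1 member, Syt11, control and isolated values were fully apart, against 8.85% of all tested genes (4.12% higher and 4.73% lower).

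**Figure D1:**
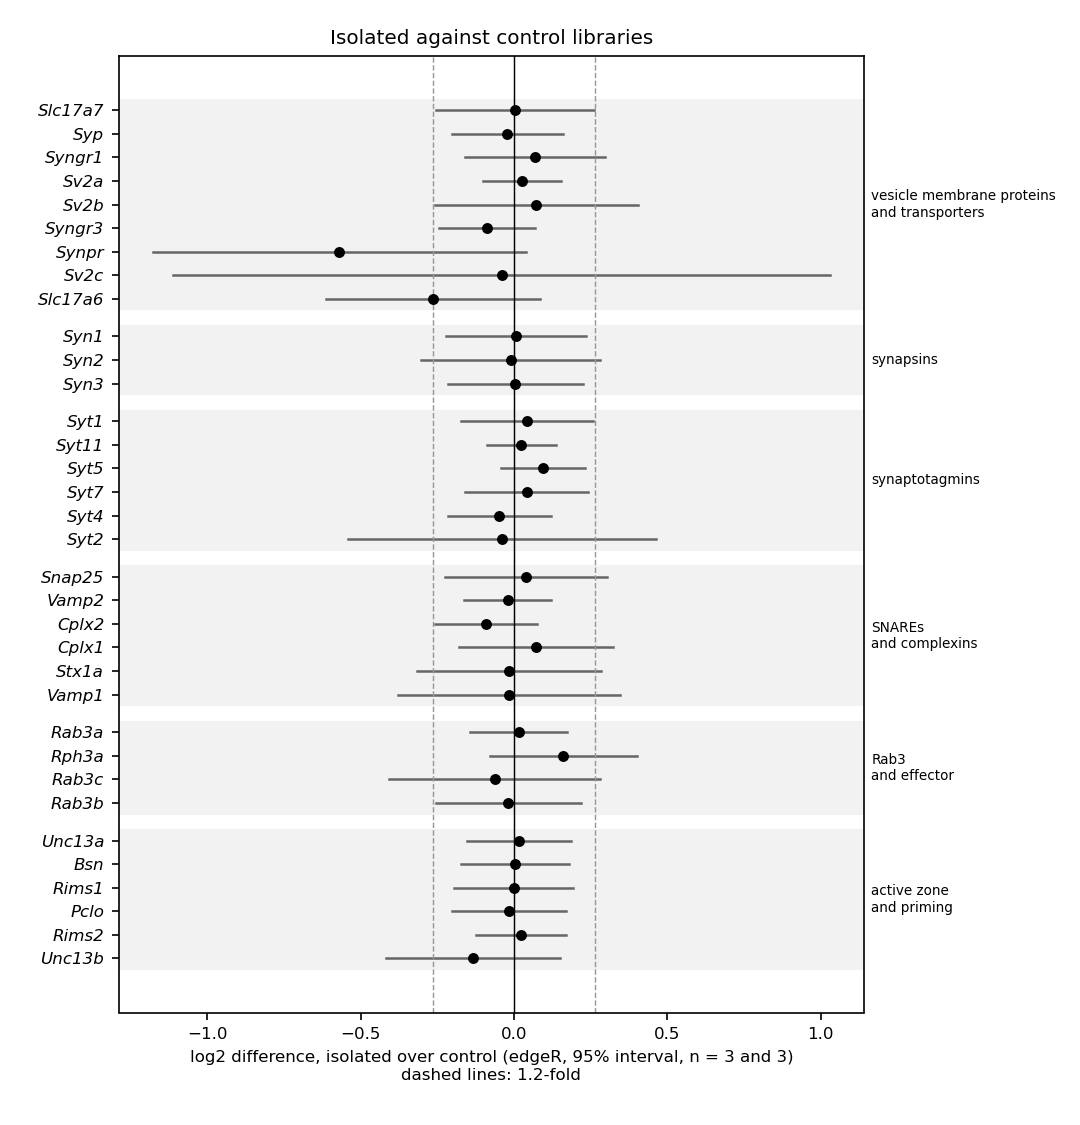
Log2 difference between isolated and control libraries for each of the 34 genes, grouped by role (y axis), with its 95% interval from edgeR (x axis, 3 libraries per group). The points lie close to 0 except for Synpr at -0.57 and Slc17a6 at -0.26, every interval includes 0, and the widest belongs to Sv2c.

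Levels per length, as FPKM (fragments scaled to gene length and library depth), spanned more than 2 orders of magnitude. Snap25 ranked 3 among all 19943 genes, at a mean of 1517 FPKM over the 6 libraries. Vamp2 (612 FPKM), Slc17a7 (594 FPKM) and Syp (522 FPKM) came next among the members, where Vamp2 and Slc17a7 overlapped between libraries, followed by Syt1 (431 FPKM). Cplx2 (351 FPKM), Cplx1 (341 FPKM) and Rab3a (337 FPKM) overlapped between libraries and have no clear order. At the other end stood Slc17a6 (4.13 FPKM), Sv2c (4.45 FPKM), Syn3 (7.91 FPKM), Unc13b (10.2 FPKM) and Syt2 (10.8 FPKM), each a minor paralog of its family. The median over members was 77.7 FPKM, beside 7.76 FPKM over all tested genes.

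**Figure D2:**
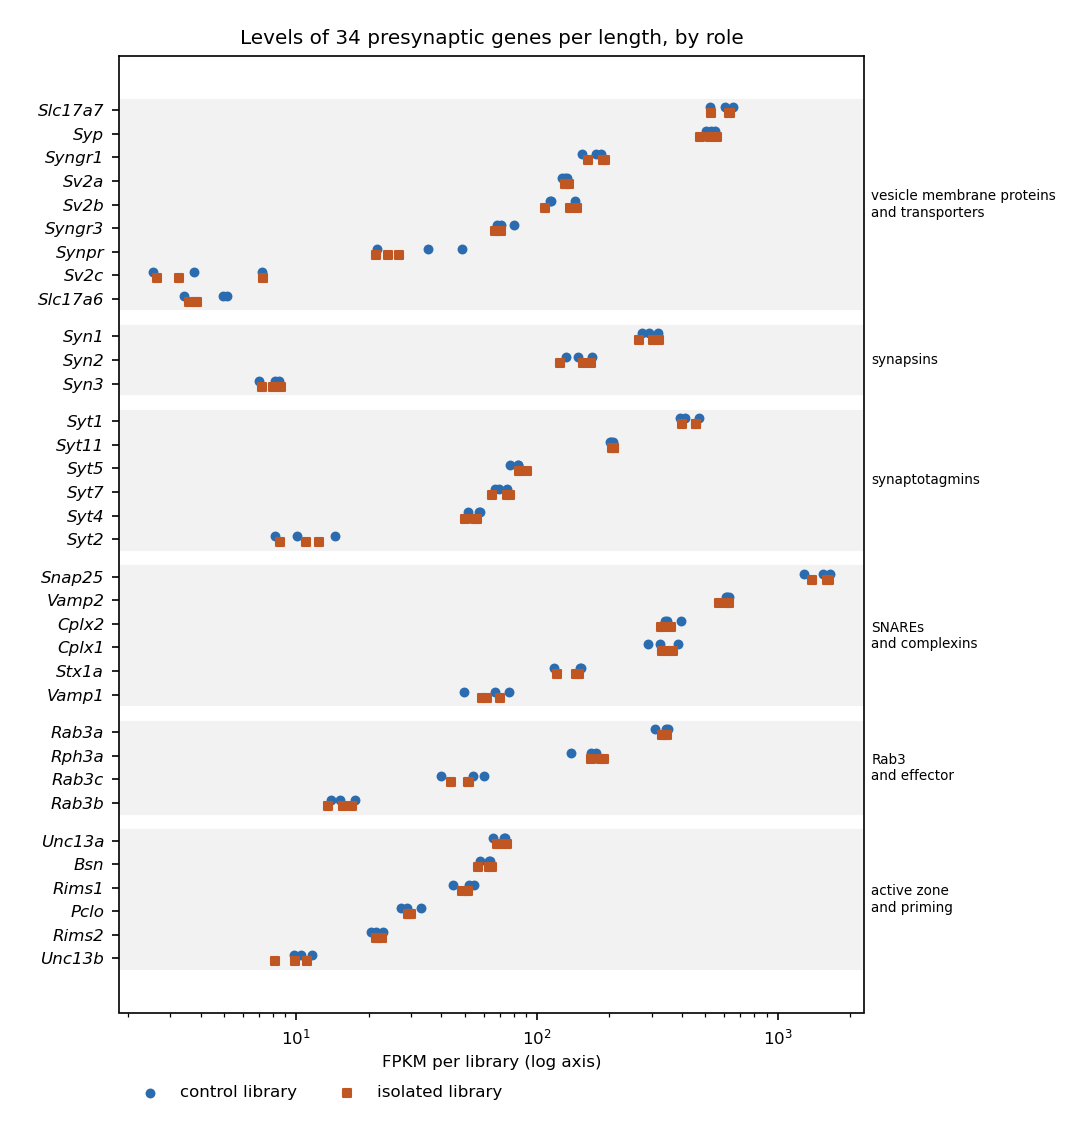
FPKM of each gene (x axis, log scale) in each of the 6 libraries, grouped by role and ordered by mean level (y axis), with circles for control and squares for isolated libraries. Snap25 lies highest at a mean of 1517 FPKM and Slc17a6 lowest at 4.13 FPKM, and circles and squares of a gene lie together.

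Promoter sequences from RefSeq (GRCm38.p6, the build of the deposited tables being mm10, the same assembly) were at hand for 26 of the 34 genes, in 37 windows of the 250 bases before a start site. The 4 shown belong to members whose levels separate the libraries or that stand for their group. They are Slc17a7 (chr7:45163671-45163920, strand plus), the most abundant vesicle transporter gene, Sv2c (chr13:96132578-96132827, strand minus), the member that varied most, Vamp1 (chr6:125215331-125215580, strand plus), the minor synaptobrevin, and Syn1 (chrX:20920919-20921168, strand minus), the major synapsin. Capitals mark the matches to the GC box, the cAMP response element and the REST element described after the sequences, on either strand.
Slc17a7: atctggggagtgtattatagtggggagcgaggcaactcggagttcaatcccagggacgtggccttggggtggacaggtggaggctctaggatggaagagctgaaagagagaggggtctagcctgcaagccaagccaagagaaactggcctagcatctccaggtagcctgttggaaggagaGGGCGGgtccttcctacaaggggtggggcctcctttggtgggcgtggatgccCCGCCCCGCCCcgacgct
Sv2c: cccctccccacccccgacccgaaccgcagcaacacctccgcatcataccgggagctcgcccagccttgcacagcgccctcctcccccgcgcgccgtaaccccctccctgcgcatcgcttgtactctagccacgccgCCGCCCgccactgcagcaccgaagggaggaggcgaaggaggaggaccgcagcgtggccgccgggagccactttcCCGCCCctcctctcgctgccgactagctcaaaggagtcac
Vamp1: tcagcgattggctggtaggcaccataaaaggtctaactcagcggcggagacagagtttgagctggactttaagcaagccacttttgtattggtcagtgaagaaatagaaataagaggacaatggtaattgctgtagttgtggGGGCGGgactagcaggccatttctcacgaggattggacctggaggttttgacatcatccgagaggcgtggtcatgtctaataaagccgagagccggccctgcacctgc
Syn1: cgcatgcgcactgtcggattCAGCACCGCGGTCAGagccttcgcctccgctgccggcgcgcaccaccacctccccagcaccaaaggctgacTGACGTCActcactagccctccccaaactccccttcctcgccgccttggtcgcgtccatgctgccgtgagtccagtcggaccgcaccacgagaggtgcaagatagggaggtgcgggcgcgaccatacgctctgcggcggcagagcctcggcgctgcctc

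The letters GGGCGG, the GC box bound by Sp1-type factors, were found on either strand in 23 of the 37 windows (62.2%), against 32.7% of all 32851 promoter windows of the same length. The windows of the members were also richer in G and C, at a median of 58% beside 52.4%. Slc17a7 held 3 such matches, of which a pair overlaps, Sv2c held 2 and Vamp1 held 1. Syn1 held none, but was the one gene among the 26 with TGACGTCA, the palindromic cAMP response element, found in 1.55% of all windows. Its window also held the RE1 element of REST, a repressor that silences neuronal genes in other cell types, in a form that lets 1 further position hold any base. That position was freed after the Syn1 sequence had been seen, and this form occurred in 0.0517% of all windows. The stricter form of RE1 occurred in 0.0335% of all windows and in 0 of the 37. TATAAA was found in 3 of the 37 windows (8.11%, against 12.4% of all), 2 of Sv2b and 1 of Rab3b, and the Egr motif GCGTGGGCG in 1 (Unc13a, against 0.536% of all). Each match is a stretch of letters only, and neither binding nor activity was measured.

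Among the vesicle membrane genes, Slc17a7 encodes VGLUT1, the transporter that loads glutamate into the vesicles of most cortical excitatory neurons, and lies on chromosome 7, from 45163921 to 45176139 (GRCm38). It was measured at 1822, 1563 and 1984 CPM in control 1, 2 and 3 and 1908, 1909 and 1568 CPM in isolated 1, 2 and 3. The lowest library of each group was control 2 and isolated 3, and the groups overlapped throughout, at a mean of 1789.6 ± 212 CPM for the controls and 1795 ± 196 CPM after isolation (SD, n = 3) (log2 difference 0.0045, SE 0.11, 95% interval from -0.25 to 0.26). Slc17a6 encodes VGLUT2, typical of thalamic and other subcortical inputs and scarce in adult cortical neurons. Its level was 22.6, 21.4 and 15 CPM in control 1, 2 and 3 and 17, 16.7 and 15.4 CPM in isolated 1, 2 and 3. Control 1 and control 2 stood above every isolated library, whereas control 3 was the lowest of all 6, so the groups overlapped (log2 difference -0.26, SE 0.15, 95% interval from -0.61 to 0.086, edgeR unadjusted p = 0.119, adjusted p = 0.999). Without control 3, the library lowest in Slc17a6, the difference was -0.43, with an unadjusted p of 0.00154 and an adjusted p of 0.681 by edgeR. In that fit 860 of 15336 tested genes had an unadjusted p under 0.05. Without control 1 the Slc17a6 difference was -0.15. Summed levels of 5 thalamic markers lay between 15.1 and 34 CPM and were highest in isolated 3, where Prkcd alone made up 24 CPM. The other 4 markers summed to 12.2, 18 and 12.8 CPM in control 1, 2 and 3 and 10.4, 8.67 and 10 CPM in isolated 1, 2 and 3. In this sum, from which Prkcd was left out after its values were seen, every isolated library lay below every control. In the sum of all 5 the groups overlapped. Such a separation was not particular to thalamic markers. The sum of 5 vascular markers was 179 to 203 CPM in control and 160 to 174 CPM in isolated libraries. The sum of 7 astrocyte markers was also lower in every isolated library, while the other marker sums overlapped. Of the 5 thalamic markers, 3 passed the filter on low counts, and Gbx2 was at 0 in control 3 and isolated 1. Of these 3, 1 (Lef1) was fully apart and lower in isolated libraries, against 4.73% of all tested genes, while Tcf7l2 and Prkcd overlapped. The part of the thalamic markers in the Slc17a6 result was not tested.

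Synpr, which encodes synaptoporin, a relative of synaptophysin, had the smallest p of the 34 genes. It lies on chromosome 14, from 13284780 to 13615469 and stood at 55.9, 128 and 92.8 CPM in control 1, 2 and 3 and 55.5, 62 and 68.8 CPM in isolated 1, 2 and 3. Control 2 and control 3 were above every isolated library, but control 1 was level with isolated 1. The groups had a mean of 92.2 ± 36 CPM for the controls and 62.1 ± 6.64 CPM after isolation (SD, n = 3). This gave a log2 difference of -0.57, SE 0.26, 95% interval from -1.18 to 0.038, with an edgeR unadjusted p of 0.0624 and an adjusted p of 0.999. Without control 1, the lowest control, the difference was -0.83 (edgeR unadjusted p = 0.00146, adjusted p = 0.934). In that fit 741 of 15354 tested genes had an unadjusted p under 0.05. Without control 2, which was also the highest in striatal markers, the difference was -0.26 (unadjusted p = 0.238 by edgeR). Isolated 3, the other library with many striatal transcripts, was the highest isolated library in Synpr but was below control 2 and control 3. Control 2 was highest in the sum of 4 olfactory bulb markers, at 22.9 CPM against 5.9 to 8.39 CPM elsewhere. Cdhr1 alone made up 17.7 CPM of it. Eomes was highest in isolated 3 and Doc2g in control 1, and 2 of the 4 passed the filter on low counts. The part of these marker levels in the Synpr level was not tested.

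Sv2c encodes one of the 3 SV2 glycoproteins of the vesicle membrane, the one that marks basal ganglia circuits. Its gene is on chromosome 13, from 95959443 to 96132577. It varied more between libraries than any other member, from 10.9 to 30.8 CPM, a 2.81-fold range. The values were 16.1, 30.6 and 10.9 CPM in control 1, 2 and 3 and 14, 11.3 and 30.8 CPM in isolated 1, 2 and 3. Both libraries high in Sv2c were the ones high in the striatal gene Ppp1r1b, which stood at 301, 834 and 108 CPM in control 1, 2 and 3 and 152, 159 and 622 CPM in isolated 1, 2 and 3. In bulk RNA, more cells of a type and more RNA per cell cannot be told apart. The difference between the groups in Sv2c was smaller than this spread (log2 difference -0.040, SE 0.46, 95% interval from -1.11 to 1.03), and the interval includes a change of more than 2-fold in either direction.

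The other 5 vesicle membrane genes overlapped between the groups. Syp, which encodes synaptophysin, a major vesicle membrane protein, was at a mean of 1305 ± 62.4 CPM for the controls and 1286 ± 113 CPM after isolation (SD, n = 3). Sv2a, the binding site of the drug levetiracetam, had the narrowest range of this group, 497 to 541 CPM (log2 difference 0.025, SE 0.054, 95% interval from -0.10 to 0.15). Sv2b ranged from 578 to 796 CPM and Syngr1, a synaptogyrin of small vesicles, from 634 to 802 CPM. Both were lowest in control 2 and isolated 3. Syngr3, another synaptogyrin, had a log2 difference of -0.088 (SE 0.067), with control 2 as its highest library. The Syngr3 difference shrank to -0.025 when control 2 was left out, and to -0.00063 when isolated 3 was left out too. Of the 9 genes, 4 had a higher and 5 a lower mean in isolated libraries, with a median of -0.021. A gene on the other strand shares 16.8% of the annotated exon bases of Syp, whose reads could not be separated without strand.

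The synapsins tether vesicles in the reserve pool. Syn1, on chromosome X, from 20860511 to 20920918, was at 950.3, 873 and 1043 CPM in control 1, 2 and 3 and 1050.1, 981 and 847 CPM in isolated 1, 2 and 3. Control 2 and isolated 3 were again the lowest, and the means of the groups were 955 and 959 CPM (log2 difference 0.0058, SE 0.098, 95% interval from -0.22 to 0.23). Syn2 (log2 difference -0.0099, SE 0.13) and Syn3 (log2 difference 0.0050, SE 0.095) also overlapped between the groups. Syn2 and Syn3 were lowest in control 1 and isolated 3 rather than in control 2. Per length, Syn1 made up 65.2% ± 2.34 in control and 65.4% ± 1.98 in isolated libraries (SD, n = 3) of the synapsin FPKM, Syn2 33% ± 2.21 in control and 32.8% ± 1.96 in isolated libraries (SD, n = 3) and Syn3 1.75% ± 0.2 in control and 1.75% ± 0.0866 in isolated libraries (SD, n = 3). Reads of Syn3 overlap on the other strand with Timp3, a gene inside it, over 14.1% of its exon bases.

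Of the synaptotagmins, Syt1 is the main calcium sensor for fast release in the forebrain. It lies on chromosome 10, from 108497650 to 109010980 and was at 1979, 1860.4 and 2263 CPM in control 1, 2 and 3 and 2205, 2180.1 and 1899 CPM in isolated 1, 2 and 3 (log2 difference 0.043, SE 0.092, 95% interval from -0.17 to 0.26). The groups overlapped, and control 2 and isolated 3 were the lowest. Syt2 serves the same role in fast-spiking interneurons and hindbrain neurons and was far scarcer, at 49.1, 34 and 27.9 CPM in control 1, 2 and 3 and 37.4, 28.9 and 41.8 CPM in isolated 1, 2 and 3. Control 1 and isolated 3 were the highest for Syt2, control 3 and isolated 2 the lowest, and the groups overlapped (log2 difference -0.038, SE 0.22, 95% interval from -0.54 to 0.46). The marker of fast-spiking interneurons Pvalb was also highest in control 1, at 65.7 CPM, and lay between 34.3 and 50 CPM in the others, but isolated 3 was not high. The sum of 10 oligodendrocyte markers was highest in the same libraries as Syt2, at 6651 CPM in isolated 3 and 4655 CPM in control 1, with 2785 to 3903 CPM elsewhere. Their part in the Syt2 level was not tested.

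Syt11, a synaptotagmin that does not bind calcium and acts in endocytosis, was the one member whose groups were apart. It stood at 932, 949 and 947 CPM in control 1, 2 and 3 and 955, 966 and 955 CPM in isolated 1, 2 and 3. Every isolated library lay above every control, with the highest control at 949 CPM and the lowest isolated library at 955 CPM. The whole range over 6 libraries was 1.04-fold, and the difference did not pass (log2 difference 0.024, SE 0.048, 95% interval from -0.087 to 0.14, edgeR unadjusted p = 0.626, adjusted p = 0.999). Syt5, another vesicle synaptotagmin, had a log2 difference of 0.096 (SE 0.059, unadjusted p = 0.147 by edgeR). Its highest control, at 147 CPM, exceeded isolated 3 at 146 CPM. Syt7, a slow sensor for facilitation and asynchronous release (log2 difference 0.042, SE 0.086), and Syt4, an activity-induced member (log2 difference -0.048, SE 0.072), overlapped as well. For Syt4, 14.5% of the exon bases are shared with a gene on the other strand. The sum of 7 activity-induced markers was 1434 CPM in control 1 and 545 to 804 CPM elsewhere, while Syt4 was second lowest in control 1.

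Among the SNARE genes, Snap25, which encodes the plasma membrane SNARE SNAP-25 on chromosome 2, from 136713439 to 136782428, was the most abundant member. Its level was 3296, 2713 and 3542 CPM in control 1, 2 and 3 and 3515, 3392 and 2907 CPM in isolated 1, 2 and 3. Control 2 and isolated 3 were the lowest library of each group, and the group means of 3184 and 3271 CPM differed by less than the spread (log2 difference 0.039, SE 0.11, 95% interval from -0.23 to 0.30). Stx1a, its partner syntaxin 1A, was likewise highest in control 3 and lowest in control 2, and ranged from 257 to 336 CPM (log2 difference -0.016, SE 0.13). Vamp2, the main vesicle SNARE of the forebrain, had a mean of 1329.6 ± 14 CPM for the controls and 1311 ± 79.6 CPM after isolation (SD, n = 3), a difference smaller than the larger SD. Vamp1, its paralog in fast motor and sensory circuits and in fast-spiking interneurons, was at 215, 138 and 189 CPM in control 1, 2 and 3 and 199, 175 and 163 CPM in isolated 1, 2 and 3. Control 1 was highest and control 2 lowest, which enclosed all 3 isolated libraries (log2 difference -0.015, SE 0.16, 95% interval from -0.38 to 0.35). Pvalb was also highest in control 1 and lowest in control 2, but other interneuron markers were not low in control 2, with Gad2 highest and Gad1 and Dlx5 second highest there.

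The complexins clamp and promote fusion of the assembled SNAREs. Cplx1, richer in inhibitory and subcortical neurons, ranged from 632 to 852 CPM, with control 2 lowest and control 1 highest (log2 difference 0.072, SE 0.11, 95% interval from -0.18 to 0.32). Without control 1 its difference was 0.19, and without control 2 it was -0.025. Cplx2, richer in excitatory neurons, ranged from 1644 to 1959 CPM (log2 difference -0.091, SE 0.072, 95% interval from -0.26 to 0.076). It was highest in control 2, where Cplx1 was lowest, and without control 2 the difference was -0.022. Per length, Cplx1 made up 47.8% ± 5.35 in control and 50.7% ± 1.77 in isolated libraries (SD, n = 3) of the FPKM of Cplx1 and Cplx2, and 42% in control 2. The difference of 2.93 percentage points was 0.0248 without control 2 and 5.3 without control 1.

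Rab3 proteins are small GTPases that bring vesicles to the active zone, and Rph3a encodes rabphilin, which binds the active form. Rab3a, on chromosome 8, from 70754703 to 70758608, was at 518, 453 and 507 CPM in control 1, 2 and 3 and 516, 499 and 479 CPM in isolated 1, 2 and 3 (log2 difference 0.016, SE 0.068, 95% interval from -0.14 to 0.17). It varied by a factor of 1.14 in all, with control 2 and isolated 3 lowest. Rab3b ranged from 45.6 to 57.7 CPM and was highest in control 2 and isolated 3. Rab3c ranged from 343 to 511 CPM, with control 1 lowest and control 2 highest. Rph3a had the largest positive difference of the 34 genes, at a mean of 669 ± 86.9 CPM for the controls and 748 ± 52.4 CPM after isolation (SD, n = 3) (log2 difference 0.16, SE 0.10, 95% interval from -0.079 to 0.40, edgeR unadjusted p = 0.159, adjusted p = 0.999). With the striatal marker level as a covariate the difference was 0.16 with an unadjusted p of 0.0173 and an adjusted p of 0.769 by edgeR. In that fit 935 of 15169 tested genes had an unadjusted p under 0.05, against 535 without the covariate. Without control 2, its lowest library, the difference was 0.059.

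At the active zone, Unc13a encodes Munc13-1, the priming factor of most excitatory synapses. It lies on chromosome 8, from 71624125 to 71671774 and was at 592, 523 and 591 CPM in control 1, 2 and 3 and 609, 575 and 542 CPM in isolated 1, 2 and 3 (log2 difference 0.017, SE 0.073, 95% interval from -0.15 to 0.19). Control 2 and isolated 3 were lowest, and the groups overlapped. Unc13b, which encodes Munc13-2, was scarcer and ranged from 51.9 CPM in isolated 3 to 75.9 CPM in control 3 (log2 difference -0.13, SE 0.12, 95% interval from -0.42 to 0.15). Its difference was -0.015 without isolated 3, -0.055 without control 3 and -0.24 without isolated 2. The scaffold genes Bsn (Bassoon) and Pclo (Piccolo), which encode some of the longest proteins of the terminal, had log2 differences of 0.0028 (SE 0.076) and -0.016 (SE 0.080). Rims1 and Rims2 encode the RIM proteins that link Rab3, Munc13 and calcium channels. Their differences were -0.0010 (SE 0.084) and 0.023 (SE 0.063). Of these 6 genes, 3 had a higher and 3 a lower mean, and the median log2 difference was 0.0009.

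Paralog shares, the part of a family's summed FPKM held by 1 gene in a library, were compared for 13 shares with an exact two-sided permutation test. No share passed, and none could, since 3 libraries against 3 allow no p below 0.1. The smallest p was that of Unc13b in the Munc13 family, at 13.1% ± 1.17 in control and 11.9% ± 1.41 in isolated libraries (SD, n = 3) (p = 0.2, adjusted p = 1 by the exact permutation test, adjusted over the 13). Its difference of -1.19 percentage points was -0.555 without isolated 3 and -0.23 without control 2 and isolated 3. The share of Synpr in the synaptophysins was 6.28% ± 2.45 in control and 4.46% ± 0.808 in isolated libraries (SD, n = 3) (p = 0.3, adjusted p = 1, exact permutation test), and control 2 alone reached 8.84%. Slc17a6 held 0.769% ± 0.221 in control and 0.629% ± 0.0404 in isolated libraries (SD, n = 3) of the 2 glutamate transporter genes (p = 0.4, adjusted p = 1, exact permutation test). Sv2c held 1.78% ± 1.03 in control and 1.69% ± 1.11 in isolated libraries (SD, n = 3) of the SV2 genes. Sv2c reached 2.91% in control 2 and 2.97% in isolated 3. Vamp1 held 9.46% ± 1.96 in control and 9.49% ± 0.587 in isolated libraries (SD, n = 3) of the synaptobrevin genes and Rab3b 3.89% ± 0.559 in control and 3.82% ± 0.534 in isolated libraries (SD, n = 3) of the Rab3 genes.

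Syt1 made up 50.1% ± 2.25 in control and 50.3% ± 1.33 in isolated libraries (SD, n = 3) of the 6 synaptotagmins, and Syt2 2.53% ± 0.836 in control and 2.39% ± 0.586 in isolated libraries (SD, n = 3) of Syt1 and Syt2 alone. Of the 6 synaptotagmins, Syt4 was the one whose share did not overlap between groups, at 6.29, 7.04 and 6.39% in control 1, 2 and 3 and 6.2, 6.28 and 6.08% in isolated 1, 2 and 3, but this share was not among the 13 tested. Control 1, at 6.287%, and isolated 2, at 6.283%, were nearly level. No other share of any family was fully apart. Pclo held 32.5% ± 1.47 in control and 32.3% ± 1.5 in isolated libraries (SD, n = 3) beside Bsn. Rims2 held 30.1% ± 1.61 in control and 30.3% ± 0.543 in isolated libraries (SD, n = 3) beside Rims1, and Syngr1 70% ± 3.75 in control and 72.3% ± 1.35 in isolated libraries (SD, n = 3) beside Syngr3. The Syngr1 difference of 2.31 percentage points was 0.19 without control 2 and 3.77 without control 3. For the 5 tested shares of this paragraph, the difference between groups was smaller than the larger SD.

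**Figure D3:**
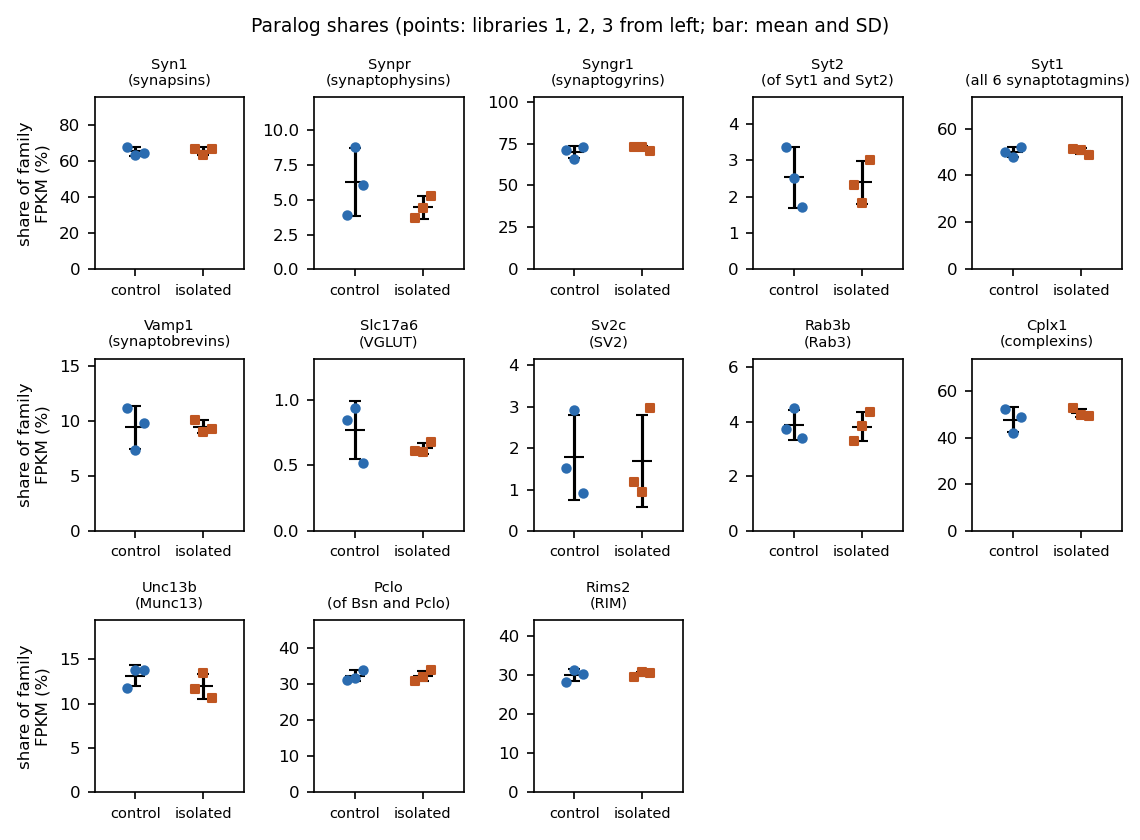
Share of family FPKM, summed over members only (y axis, percent, each panel from 0), of the 13 paralogs compared, in control and isolated libraries. Points are libraries 1, 2 and 3 from left to right, and the bar gives the mean and SD. The groups overlap in every panel, and control 2 stands apart from the other controls for Synpr (8.84%) and Sv2c (2.91%).

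Libraries within a group differed in a pattern that ran across the roles. In 15 of the 34 genes (44.1%) the pair of lowest libraries was control 2 and isolated 3, against 12.9% of all tested genes and 17.5% of those at least as abundant as the least abundant member. They include Slc17a7, Syp, Syngr1, Sv2a and Sv2b of the vesicle membrane, Syn1, Syt1, Snap25, Stx1a and Vamp1, Rab3a and Rph3a, and Unc13a, Bsn and Rims1. In 3 genes the same pair was the highest: Sv2c, Cplx2 and Rab3b (8.82%, against 12.5% of all tested genes). The summed level of 8 cortical excitatory markers was 561 CPM in control 2 and 592 CPM in isolated 3, and 751 to 761 CPM in the others. The 10 interneuron markers, summed, were highest in that same pair of libraries, at 1419 and 1387 CPM, and between 1245 and 1349 CPM in the others. The pattern was seen in the data and counted afterwards, and the part of the marker levels in it was not tested. As a description, the median deviation of the 34 genes from the mean of all libraries, in log2 CPM, was -0.066 in control 2 and -0.12 in isolated 3, -0.0062 in control 1 and between 0.039 and 0.077 in the other three.

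**Figure D4:**
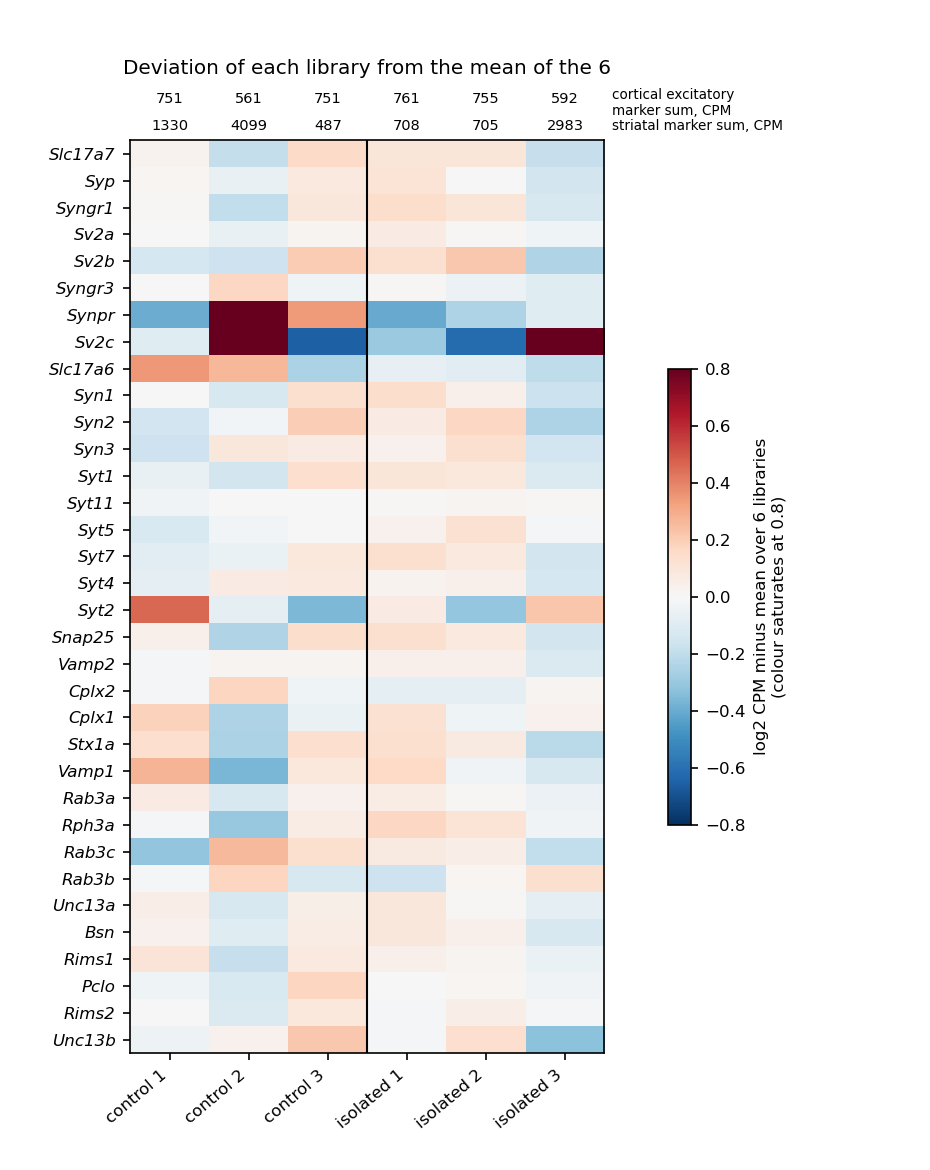
Deviation of each library (columns) from the mean of the 6 libraries in log2 CPM for each of the 34 genes (rows, by role), with the summed CPM of cortical excitatory and striatal markers written above each column. Most genes are below the mean in control 2 and isolated 3, where the striatal sum is 4099 and 2983 CPM, while Sv2c is above it there and Synpr in control 2 and control 3.

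**Figure D5:**
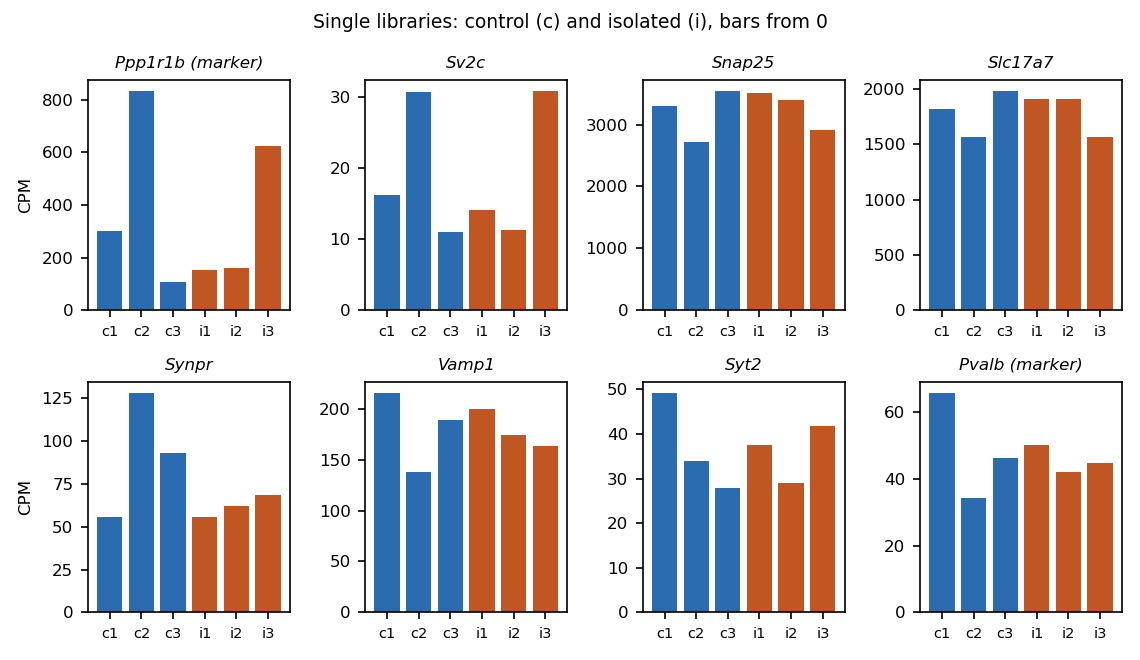
CPM in each library (bars from 0, control c1 to c3 and isolated i1 to i3) for 6 of the members and for the striatal marker Ppp1r1b and the interneuron marker Pvalb. Ppp1r1b and Sv2c peak in control 2 and isolated 3, where Snap25 and Slc17a7 are lowest, and Vamp1 and Pvalb are highest in control 1 and lowest in control 2, which does not hold for the other interneuron markers Gad1 and Gad2.

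Without control 2 and isolated 3, the 4 remaining libraries gave 0 members at an adjusted p under 0.05 with edgeR, 0 at an unadjusted p under 0.05, and a median log2 difference of 0.0065. The differences of Synpr and Slc17a6 were then -0.34 and -0.16. With the striatal level as a covariate, edgeR gave Synpr a difference of -0.55 with an unadjusted p of 0.0416. Rph3a and Synpr, 2 of the 34 members, were under an unadjusted 0.05 in that fit, beside 935 of all 15169 tested genes. In the same fit 0 members passed the adjusted threshold.

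The deposited tables also give a length per gene and library. Among the members it varied most for Rims2, from 6148 bases in isolated 1 to 6383 bases in isolated 3 (3.83%), over 4 transcripts. Syn2 followed, with 3420 bases in isolated 2 and 3518 in isolated 3 (2.84%), and Synpr with 2577 bases in isolated 1 and 2636 in control 2 (2.3%). The highest and the lowest length of Rims2 and of Syn2 both fell in the isolated group, so the groups overlapped. How that length was computed is not stated in the labels.

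Other genes of the release machinery, a list of 60 that are no members, are given by counts. Of these 59 were tested, 35 with a higher and 24 with a lower mean in isolated libraries, and 0 passed the adjusted threshold or had an unadjusted p under 0.05 with edgeR. Their median log2 difference was 0.012. By role, the 10 tested genes of SNARE assembly and disassembly had a median of 0.0078, the 17 of priming, calcium sensing and the Rab cycle 0.0030, the 10 of the active zone -0.036 and the 14 other vesicle proteins 0.027. All 8 vesicle recycling genes had a higher mean, with a median of 0.049 and a smallest unadjusted p of 0.317 by edgeR. In 4 of the 8 the lowest libraries were control 2 and isolated 3, so the genes did not vary independently. Of the 8, Dnm1, the dynamin that cuts vesicles from the membrane, had a mean of 1504 ± 179 CPM for the controls and 1602 ± 142 CPM after isolation (SD, n = 3). It was named after its values were seen. In 25 of the 59 (42.4%) control 2 and isolated 3 were the lowest libraries.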

How the data were processed

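RNA-seq of 6 libraries of mouse medial prefrontal cortex was used, 3 control and 3 isolated, with 50-base reads. The authors deposited expected counts, FPKM and a length in bases per gene for each library. HISAT, Bowtie2, RSEM and mm10 are named in the submitters' processing notes, without versions or order. Whether strand was used in counting is not stated in the sources used here. Another 6 sample columns in a table of the whole series, with codes that no label gives, were not used. An entry without a gene name held at most 0.00095% of the counts and was left out.

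Expected counts were rounded to whole numbers, filtered with filterByExpr (minimum count 10, minimum total 15, leaving 15169 of 19943 genes), scaled by TMM and fitted in R 4.3.3 with edgeR 4.0.16 (quasi-likelihood test, isolated against control, Benjamini-Hochberg over all tested genes, threshold 0.05). The fit was tested on simulated data. CPM are scaled with the TMM library sizes. A log2 difference is isolated over control, and a 95% interval is from the same fit. Paralog shares are from the deposited FPKM, with each family summed over members only. DESeq2 1.42.0, limma 3.58.1, log2 FPKM with limma, other filters, each library left out, control 2 and isolated 3 left out together, the striatal marker level as a covariate, shares from expected counts and a replicate block were the alternatives. Exon overlaps are from GENCODE M21 and coordinates are those of GRCm38.

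The 34 members, the marker lists and the other presynaptic genes were chosen with earlier results of these data known. Values in every library are given for members whose groups do not overlap, that have an unadjusted p under 0.05, whose highest library is at least 1.5 times the lowest, or that have the highest FPKM of their role group. All others are given by ranges, differences and counts, and Dnm1 was added after its values were seen.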

Additional observations from a re-analysis of the deposited data

How the results depend on the processing

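No member was called at an adjusted p under 0.05 in any of the 17 alternatives, and the smallest adjusted p of a member was 0.681 (Slc17a6 without control 3, edgeR). The median log2 difference of the members lay between -0.027 (without control 2) and 0.045 (without isolated 3). Over all genes, the DESeq2 Wald test called 1 gene, Fkbp5, as higher, and 306 at an unadjusted p under 0.05. Limma-voom called 0 (536 unadjusted). A difference near 0 changes sign easily: 8 members kept their sign in all 17 alternatives (Cplx2, Rph3a, Slc17a6, Syngr3, Synpr, Syt11, Syt5 and Unc13b). The cause of the sign changes was not tested.

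Without control 2 and isolated 3, an alternative with 2 libraries per group, the log2 differences of opposite sign were Rims2 -0.019, Cplx1 -0.022, Rab3a -0.014, Syn2 0.082, Syp 0.0088, Syt4 0.030, Vamp2 0.034, Unc13a -4.7e-05 and Rab3c 0.14. The share differences of opposite sign were then, in percentage points, -1.37 for Syn1, -0.124 for Syt1 among 6 synaptotagmins and -0.94 for Vamp1. Shares from expected counts gave 0.027 for Rab3b. With the striatal level as a covariate, the log2 differences of opposite sign were Bsn -0.0048, Syn1 -0.0049, Syn3 -0.00091, Slc17a7 -0.0066 and Sv2c 0.037. The log2 difference of Rims1 was 0.00066 with DESeq2 size factors, 0.00066 by the DESeq2 Wald test, 0.0042 by limma-voom and 0.00081 with a minimum count of 50. On the log2(FPKM + 1) scale it was 0.0058, filtered or not, and 0.0060 with a pseudocount of 0.1. For Vamp1 the values were 0.0044 by limma-voom, 0.0063 on the log2(FPKM + 1) scale, filtered or not, and 0.0067 with a pseudocount of 0.1.

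The deviations of same-numbered libraries correlated at 0.025, -0.27 and -0.49 across genes, and those of control 2 and isolated 3 at 0.44. With 3 libraries per group these values cannot show whether the replicate numbers stand for pairs. With the replicate number as a block, 0 genes were called and 331 had an unadjusted p under 0.05. Under the block the log2 difference was 0.0040 for Rims1 and 0.0036 for Vamp1.

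Leaving out each library in turn gave share differences, in percentage points, of -0.69 to 1.52 for Syn1 among the synapsins, -2.99 to -0.545 for Synpr among the synaptophysins, 0.19 to 3.77 for Syngr1 among the synaptogyrins, -0.556 to 0.28 for Syt2 of synaptotagmin 1 and 2, -0.882 to 1.37 for Syt1 among the 6 synaptotagmins, -1.02 to 0.909 for Vamp1 among the synaptobrevins, -0.265 to -0.0547 for Slc17a6 among the vesicular glutamate transporters, -0.72 to 0.486 for Sv2c among the SV2 genes, -0.329 to 0.245 for Rab3b among the Rab3 genes, 0.0248 to 5.3 for Cplx1 among the complexins, -1.95 to -0.555 for Unc13b among the Munc13 genes, -0.955 to 0.685 for Pclo of Bassoon and Piccolo and -0.607 to 0.984 for Rims2 among the RIM genes. The log2 differences spanned -0.087 to 0.052 for Rims1, -0.027 to 0.071 for Rims2, -0.043 to 0.063 for Bsn, -0.025 to 0.19 for Cplx1, -0.13 to -0.022 for Cplx2, -0.43 to -0.15 for Slc17a6, -0.040 to 0.053 for Rab3a, 0.059 to 0.23 for Rph3a, -0.063 to 0.12 for Snap25, -0.13 to 0.080 for Stx1a, -0.064 to 0.087 for Syn1, -0.097 to 0.10 for Syn2, -0.0087 to 0.15 for Syngr1, -0.13 to -0.025 for Syngr3, -0.083 to 0.043 for Syp, -0.017 to 0.13 for Syt1, -0.21 to 0.22 for Syt2, -0.095 to 0.0083 for Syt4, -0.24 to -0.015 for Unc13b, -0.17 to 0.13 for Vamp1, -0.046 to 0.028 for Vamp2, 0.016 to 0.030 for Syt11, -0.078 to 0.073 for Pclo, -0.073 to 0.078 for Syn3, -0.040 to 0.056 for Unc13a, 0.059 to 0.12 for Syt5, -0.012 to 0.12 for Syt7, -0.00048 to 0.047 for Sv2a, -0.020 to 0.20 for Sv2b, -0.21 to 0.059 for Rab3c, -0.089 to 0.067 for Rab3b, -0.83 to -0.26 for Synpr, -0.083 to 0.092 for Slc17a7 and -0.61 to 0.47 for Sv2c. Where an arm holds 2 libraries the spread is pooled over both groups.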
